A study of Mus musculus with 4 samples.

Results

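The genes of glycolysis and glucose uptake were followed by RNA sequencing of 4 single mouse embryos, chimeras of stage E7.75, when the germ layers form and the head begins to be laid down. The set holds 33 genes, chosen by name for their place in the pathway, of 39179 genes counted, and all 33 passed the filter on low counts. In 2 embryos the injected embryonic stem cells (ESCs) carried a FLAG-tagged Lhx1 (FLAG-Lhx1), the gene for a LIM homeodomain transcription factor of the head organizer. In the other 2 they carried FLAG-Lhx1-mt, an altered form that the labels also mark with a deletion sign. Both groups were made and treated alike: ESCs from 2i medium were injected into 8-cell host embryos of an ARC by RLZRFP cross, and for the last 24 hours the recipient mothers were given doxycycline (2 mg/mL) with 5% sucrose to drink. The embryos were taken at E8.5 and staged about a day younger. Each embryo is a mixture of ESC descendants and host cells, the labels give no share of either, and no embryo without doxycycline was analysed here. The deposited counts summed to 21267116 to 30434442 per embryo, so that 3 counts corresponded to 0.0959 to 0.153 CPM (counts scaled to a library of 1e+06 after TMM normalization). Below, the 2 values of a group are those of its replicates 1 and 2, in that order, and a value after ± beside a log2 fold is its SE.

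Glycolysis splits glucose into pyruvate in the cytosol and yields ATP without oxygen. Glucose enters through SLC2A transporters, hexokinase traps it by adding a phosphate, phosphofructokinase commits it to breakdown, and pyruvate kinase makes the last ATP. Pyruvate is then either reduced to lactate, which leaves through SLC16A transporters, or passed to the pyruvate dehydrogenase complex of the mitochondria, which the PDK kinases hold inactive. Gastrulating mouse embryos take up much glucose and release much of it as lactate. Glucose can also leave early for the pentose phosphate pathway, whose first enzyme is encoded by G6pdx.

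In FLAG-Lhx1 embryos, 4 of the 33 genes fell relative to FLAG-Lhx1-mt embryos and none rose. They were Eno1, an enolase, Pfkl, the liver-type phosphofructokinase, Ldhb, a subunit of lactate dehydrogenase, and G6pdx. Their levels fell to between 0.627 and 0.676 of those in FLAG-Lhx1-mt embryos. Calls used edgeR's quasi-likelihood F test over all 15822 tested genes at a Benjamini-Hochberg adjusted p under 0.05. Of all tested genes, 3.55% were called lower and 2.62% higher, or 6.17% in both directions. The 4 calls came from 33 genes and included 1 in the glucose-splitting steps, 1 in the steps from glyceraldehyde phosphate to pyruvate, 1 in lactate metabolism and the pentose phosphate gene. The number was 1 when FLAG-Lhx1 replicate 1 was left out, 0 when FLAG-Lhx1 replicate 2 was, and 7 (6 lower, 1 higher) when FLAG-Lhx1-mt replicate 2 was. Leaving out FLAG-Lhx1-mt replicate 1 gave 4 calls, of which Eno1 and G6pdx were lower and Slc2a1 and Eno2 higher.

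The median log2 fold of the 33 genes was -0.14, against 0.01 for all tested genes, and 19 folds were negative and 14 positive. In 14 genes both FLAG-Lhx1 embryos lay below both FLAG-Lhx1-mt embryos, and in 8 genes both lay above; the shares over all tested genes were 25.8% and 26.4%, or 52.2% together. By edgeR, 6 genes had an unadjusted p under 0.05 and a negative fold and 1, Pfkfb3, a positive one. DESeq2 called 5 genes lower and limma-voom 4, and neither called any higher. Together the 33 genes took 1.43% and 1.31% of all counts in FLAG-Lhx1 embryos, against 1.77% and 1.67% in FLAG-Lhx1-mt embryos. The groups did not overlap in that share, and an exact two-sided permutation test of 2 against 2 embryos cannot give a p below 0.333. In each embryo the 10 genes with the most counts held 88.7% to 90.8% of that share. By level per kilobase, the upper 16 genes had 11 negative and 5 positive folds (median -0.22). The other 17 had 8 negative and 9 positive folds (median 0.01). In whole embryos, fewer cells of a type and less RNA per cell cannot be told apart.

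**Figure D1:**
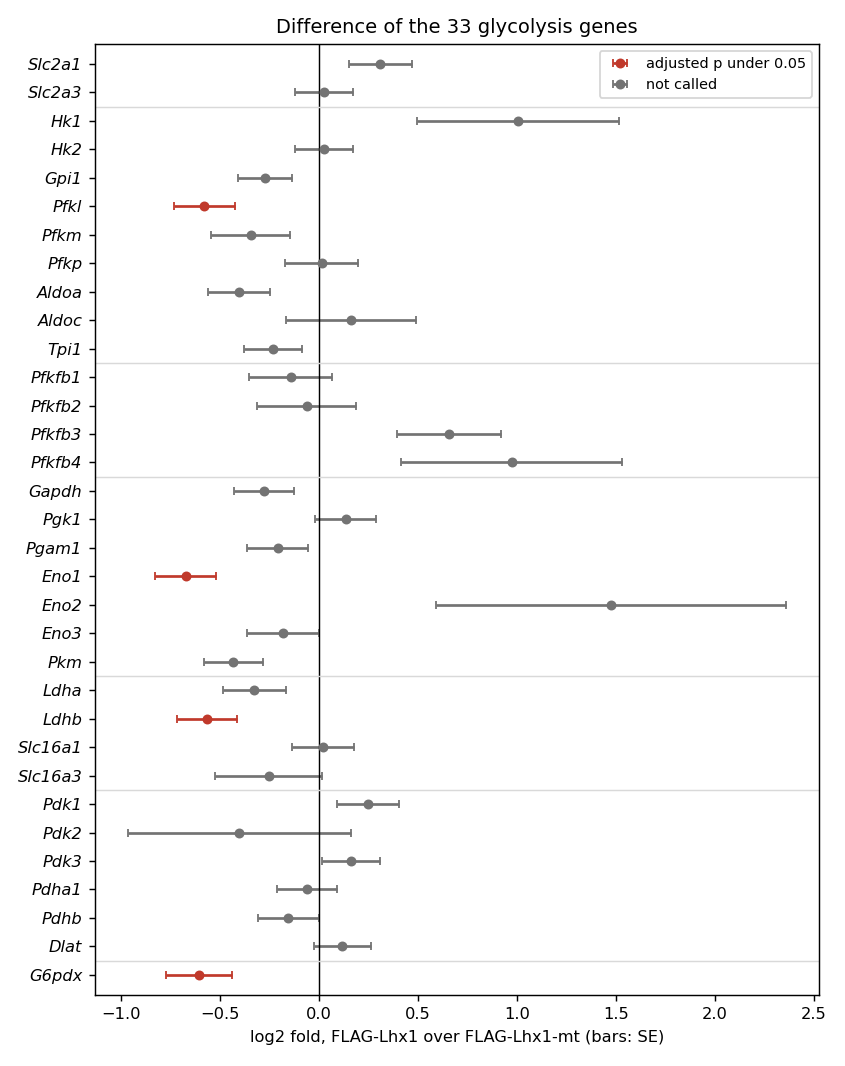
Log2 fold of each of the 33 genes, FLAG-Lhx1 over FLAG-Lhx1-mt, in pathway order from glucose entry at the top (bars are SE, 2 embryos a group, grey lines separate the roles). Eno1, Pfkl, Ldhb and G6pdx, in red, passed the test, with folds between -0.67 and -0.57.

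Per kilobase of exon, levels among the 33 genes spanned from 1401 for Ldha to 0.131 for Eno2 (CPM per kilobase, mean of 4 embryos). After Ldha came Pgk1 (572), Aldoa (430), Tpi1 (368), Gapdh (352), Ldhb (292), Eno1 (255) and Pkm (254). Ldha stood above the rest in each embryo, whereas every pair of neighbours between Pgk1 and Pkm overlapped in their ranges over the 4 embryos. Each family had a leading form: Hk2 over Hk1, Pfkl over Pfkm and Pfkp, Aldoa over Aldoc, Eno1 over Eno3 and Eno2, Ldha over Ldhb, Slc16a1 over Slc16a3, Pfkfb1 over the other PFKFB genes, and Pdk3 over Pdk1 and Pdk2. The glucose transporters Slc2a1 and Slc2a3 stood near each other, at 77.0 and 69.5, and their ranges overlapped.

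**Figure D2:**
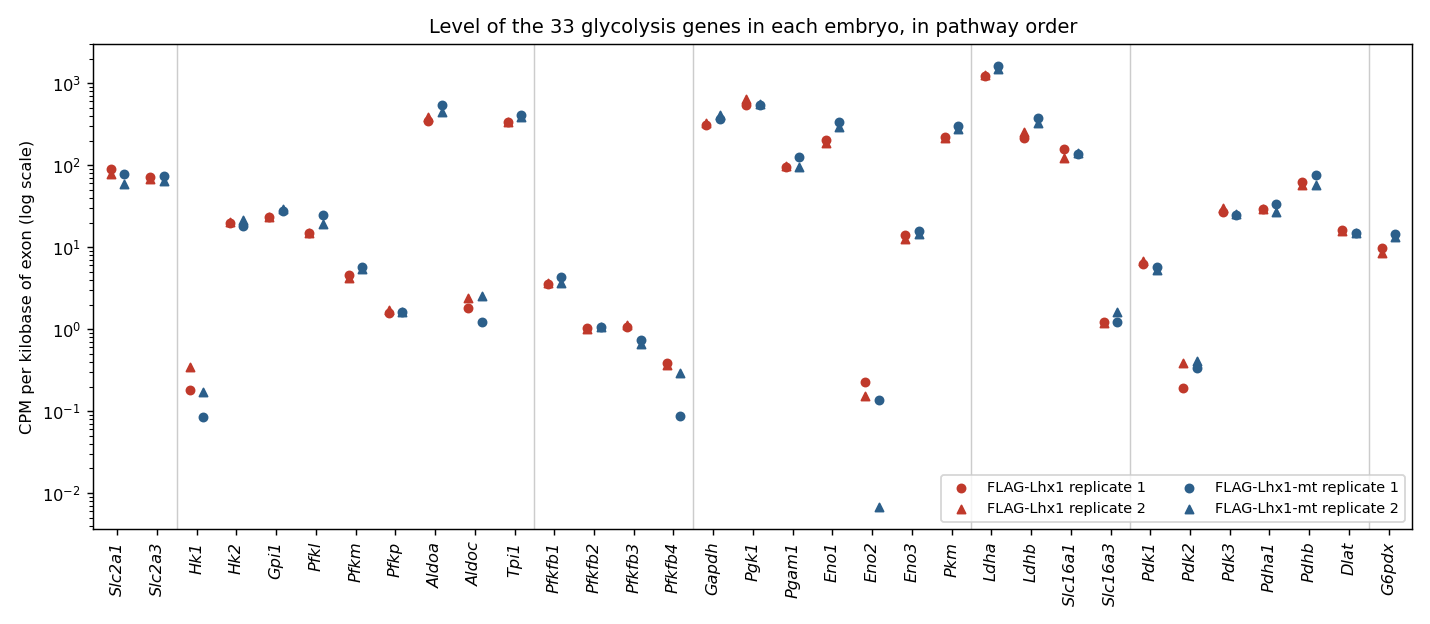
Level of each gene in each embryo (CPM per kilobase of exon, log scale), in pathway order, with FLAG-Lhx1 embryos in red left of FLAG-Lhx1-mt embryos in blue. Ldha was the highest in each embryo, and the red points of Eno1, Pfkl, Ldhb and G6pdx lie below the blue ones.

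The glucose transporters were not called. Slc2a1, which encodes GLUT1, the basal transporter of most embryonic cells, had 319.6 and 278 CPM in the FLAG-Lhx1 embryos, against 275 and 207 CPM in the FLAG-Lhx1-mt embryos. Both FLAG-Lhx1 embryos were above both FLAG-Lhx1-mt embryos (log2 fold 0.31 ± 0.16, SE, edgeR adjusted p = 0.283). Without FLAG-Lhx1-mt replicate 1, Slc2a1 passed the test (0.52, adjusted p = 0.044). Slc2a3, for the higher-affinity GLUT3, had 522 and 494 CPM against 533 and 466 CPM, and its groups overlapped (0.03 ± 0.15, adjusted p = 0.945).

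Hexokinase adds the phosphate that keeps glucose inside the cell. Hk2 had 118 and 122 CPM in FLAG-Lhx1 embryos against 108 and 128 CPM in FLAG-Lhx1-mt embryos, a log2 fold of 0.02 ± 0.15. Hk1 was rare, with 1.56 and 2.95 CPM against 0.730 and 1.47 CPM (1.00 ± 0.51, edgeR adjusted p = 0.272). Gpi1, the isomerase that follows, had 153 and 149 CPM against 177 and 187 CPM. Its groups did not overlap, but the difference was not called (-0.27 ± 0.14, adjusted p = 0.27), and Gm26762 on the other strand covers 11.5% of its exon bases.

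Phosphofructokinase is the committed step and forms tetramers of the PFKL, PFKM and PFKP subunits. Pfkl (ENSMUSG00000020277, chr10:77986947-78010083 of GRCm38) had 98.6 and 98.9 CPM in the FLAG-Lhx1 embryos, against 167 and 128 CPM in the FLAG-Lhx1-mt embryos. The 2 FLAG-Lhx1 embryos were nearly equal and both lay below the FLAG-Lhx1-mt embryos, which differed from each other. The means were 98.7 ± 0.195 CPM and 148 ± 27.5 CPM (SD, n = 2 each), and edgeR gave -0.58 ± 0.16 as the log2 fold, with an adjusted p of 0.0389. The call was lost without FLAG-Lhx1 replicate 1 (-0.61, adjusted p = 0.0982), FLAG-Lhx1 replicate 2 (-0.57, adjusted p = 0.14) or FLAG-Lhx1-mt replicate 1 (-0.38, adjusted p = 0.166), and with upper-quartile normalization (-0.52, adjusted p = 0.0598). Pfkm, the muscle type, had 15.2 and 14.2 CPM against 19.0 and 18.3 CPM (-0.35 ± 0.20, adjusted p = 0.347); exons of other genes cover 10.7% of its exon bases. Pfkp, the platelet type, was between 20.8 and 22.8 CPM in all 4 embryos (0.01 ± 0.18).

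Aldolase cuts the sugar into 2 triose phosphates, which TPI1 interconverts. Aldoa, the main aldolase, had 1022 and 1136 CPM in FLAG-Lhx1 embryos against 1572 and 1282 CPM in FLAG-Lhx1-mt embryos. The groups did not overlap and the gene was not called (-0.40 ± 0.16, edgeR adjusted p = 0.152), but it passed without FLAG-Lhx1-mt replicate 2 (-0.56, adjusted p = 0.024) and without a count filter (adjusted p = 0.0232). Tpi1 had 930.0 and 933 CPM against 1128 and 1058 CPM (-0.23 ± 0.15, adjusted p = 0.394). Aldoc, the brain type, was low and overlapped, with 5.92 and 7.89 CPM against 4.04 and 8.18 CPM; its fold turned negative with FLAG-Lhx1 replicate 2 left out (-0.05) and with FLAG-Lhx1-mt replicate 1 left out (-0.26).

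The PFKFB enzymes make and remove the sugar bisphosphate that activates phosphofructokinase. None of the 4 genes was called by edgeR, DESeq2 or limma-voom, and 1, Pfkfb3, had an unadjusted p under 0.05 with each tool. Pfkfb3, whose product mostly makes the activator, had 8.13 and 8.39 CPM in FLAG-Lhx1 embryos against 5.54 and 4.95 CPM in FLAG-Lhx1-mt embryos. Its embryos agreed closely within each group and the groups stood apart (log2 fold 0.66 ± 0.26, SE, edgeR adjusted p = 0.163; 0.51 to 0.73 over the alternatives). Pfkfb4 had 1.91 and 1.78 CPM against 0.429 and 1.41 CPM, with most of the spread between the FLAG-Lhx1-mt embryos (0.97 ± 0.56, adjusted p = 0.339), and passed without FLAG-Lhx1-mt replicate 2 (2.08, adjusted p = 0.0425). Pfkfb1, the most abundant of the 4, had 14.2 and 14.9 CPM against 17.4 and 14.7 CPM. Pfkfb2 was between 7.22 and 7.73 CPM in all embryos, and exons of other genes cover 19.5% of its exon bases.

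From glyceraldehyde phosphate to pyruvate, 1 of 7 genes fell. Eno1 (ENSMUSG00000063524, chr4:150236721-150248879 of GRCm38) encodes the general enolase, which removes water from phosphoglycerate to make phosphoenolpyruvate. It had 1091 and 1019 CPM in the FLAG-Lhx1 embryos, against 1805 and 1561 CPM in the FLAG-Lhx1-mt embryos. Both FLAG-Lhx1 embryos lay well below both FLAG-Lhx1-mt embryos, with means of 1055 ± 50.6 and 1683 ± 173 CPM (SD, n = 2 each). By edgeR its log2 fold was -0.67 ± 0.15, with an adjusted p of 0.0179. The call held in 12 of 13 alternatives and was lost without FLAG-Lhx1 replicate 2 (-0.61, adjusted p = 0.0968).

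Eno1 has a near-identical copy, Eno1b, to which counting can assign its reads. Annotated copies with at least 95% identity over 300 bases or more took 22.3% and 24.1% as many counts as Eno1 in FLAG-Lhx1 embryos, and 27.7% and 25.4% in FLAG-Lhx1-mt embryos. Eno1b had 220.4 and 231 CPM in FLAG-Lhx1 embryos against 457 and 378 CPM in FLAG-Lhx1-mt embryos, and was called lower itself (-0.89 ± 0.15, edgeR adjusted p = 0.00278). With the copies added to Eno1, its fold was -0.71 (adjusted p = 0.0132), in the same direction. In the other members, such copies took at most 2.61% (Pgam1) as many counts as the member itself.

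The other enolases were minor. Eno3, the muscle form, had 24.8 and 21.98 CPM in FLAG-Lhx1 embryos against 27.7 and 25.5 CPM in FLAG-Lhx1-mt embryos (-0.18 ± 0.18). Eno2, the neuronal form, had 28 and 14 counts against 15 and 1 counts, too few to set its fold (1.48 ± 0.88, edgeR adjusted p = 0.363), and passed only without FLAG-Lhx1-mt replicate 1 (adjusted p = 0.0243), where the group it is set against holds that 1 count.

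Gapdh, the dehydrogenase that opens the ATP-yielding stretch of the pathway, had 1282 and 1352 CPM in FLAG-Lhx1 embryos against 1521 and 1673 CPM in FLAG-Lhx1-mt embryos. The groups did not overlap and the gene was not called (-0.28 ± 0.15, edgeR adjusted p = 0.308). Pgk1, the first ATP-making kinase, had 1229 and 1459 CPM against 1209 and 1240.3 CPM, with overlap (0.13 ± 0.15). It was the only one of the 8 genes with the highest level per kilobase whose fold was positive. Pgam1, the mutase, had 189 and 191 CPM against 251 and 189 CPM, the high value being that of FLAG-Lhx1-mt replicate 1 (log2 fold -0.21 ± 0.16, and 0.0023 without that embryo).

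Pkm encodes the muscle-type pyruvate kinase, as the PKM1 and PKM2 forms that counts per gene do not separate. It had 1099 and 1063 CPM in FLAG-Lhx1 embryos against 1523 and 1394 CPM in FLAG-Lhx1-mt embryos, and the groups stood clearly apart. Its log2 fold of -0.43 ± 0.15 missed the threshold (edgeR adjusted p = 0.103). Exons of Gm49759 cover 15.3% of its exon bases, and counts there may be split. It passed with DESeq2 (-0.44, adjusted p = 0.0248), without a count filter (-0.49, adjusted p = 0.0129) and without FLAG-Lhx1-mt replicate 2 (-0.51, adjusted p = 0.0456).

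In lactate metabolism 1 of 4 genes fell. Ldhb (ENSMUSG00000030246, chr6:142490249-142507957 of GRCm38), whose subunit predominates in tissues that oxidize lactate, had 340.3 and 398 CPM in the FLAG-Lhx1 embryos, against 584 and 509 CPM in the FLAG-Lhx1-mt embryos. Both FLAG-Lhx1 embryos were lower, with means of 369 ± 41.1 and 547 ± 52.9 CPM (SD, n = 2 each), and edgeR gave -0.57 ± 0.15 as the log2 fold, with an adjusted p of 0.0379. The call was lost without FLAG-Lhx1 replicate 1 (-0.49, adjusted p = 0.233), FLAG-Lhx1 replicate 2 (-0.67, adjusted p = 0.0526) or FLAG-Lhx1-mt replicate 1 (-0.47, adjusted p = 0.0697), with upper-quartile normalization (-0.51, adjusted p = 0.0709), and with offsets for transcript length and GC content, which shrank the fold to -0.36 (adjusted p = 0.156). Ldha, for the subunit that favours lactate formation and the most abundant of the 33 genes, had 4018 and 4212 CPM against 5373 and 4944 CPM. Its groups did not overlap and it was not called (-0.33 ± 0.16, adjusted p = 0.257; -0.40 to -0.19 over the alternatives, the last with the length and GC offsets).

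The lactate carriers showed no common direction. Slc16a1, which encodes MCT1, had 705 and 548 CPM in FLAG-Lhx1 embryos, the highest and the lowest of the 4, against 609 and 628 CPM in FLAG-Lhx1-mt embryos (0.02 ± 0.16). Slc16a3, for the exporter MCT4, had 6.45 and 6.36 CPM against 6.53 and 8.72 CPM (-0.25 ± 0.27).

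At the gate to the mitochondria, none of 6 genes was called by edgeR, DESeq2 or limma-voom, and none had an unadjusted p under 0.05 with any of them. Pdhb, for the beta subunit of the first enzyme of the complex and the highest of the 6 per kilobase, had 241 and 222 CPM in FLAG-Lhx1 embryos against 291 and 224 CPM in FLAG-Lhx1-mt embryos (-0.15 ± 0.16). Pdha1, its alpha subunit, was between 100.3 and 126 CPM in the 4 embryos, with 16.1% of its exon bases covered by Map3k15 on the other strand, and Dlat, the acetyl-transferring subunit, between 72.4 and 80.3 CPM. Pdk1 had 48.2 and 53.3 CPM against 44.5 and 41.0 CPM (0.25 ± 0.16, edgeR adjusted p = 0.388), and Pdk3 had 68.1 and 76.0 CPM against 64.2 and 64.6 CPM (0.16 ± 0.15). For both kinases and for Dlat the FLAG-Lhx1 embryos lay above the FLAG-Lhx1-mt embryos without a call. Pdk2 had 0.611 and 1.22 CPM against 1.07 and 1.31 CPM.

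G6pdx (ENSMUSG00000031400, chrX:74409483-74429194 of GRCm38) encodes the dehydrogenase that opens the pentose phosphate pathway, a source of NADPH and of ribose for nucleotides. It had 30.3 and 26.5 CPM in the FLAG-Lhx1 embryos, against 45.1 and 41.4 CPM in the FLAG-Lhx1-mt embryos. The groups were well apart, with means of 28.4 ± 2.68 and 43.3 ± 2.66 CPM (SD, n = 2 each), and edgeR gave -0.61 ± 0.17 as the log2 fold, with an adjusted p of 0.0439. The call was lost without FLAG-Lhx1 replicate 1 (-0.74, adjusted p = 0.0837) or replicate 2 (-0.50, adjusted p = 0.343), with upper-quartile normalization (-0.55, adjusted p = 0.0595) and with the length and GC offsets (-0.55, adjusted p = 0.0585). Exons of Ikbkg on the other strand cover 13.6% of its exon bases; Ikbkg had 19.5 and 15.3 CPM against 18.3 and 18.2 CPM and was not called (-0.06 ± 0.20, adjusted p = 0.897).

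G6pdx is one of 5 members on the X chromosome, with Pgk1, Pfkfb1, Pdk3 and Pdha1, and the other 4 were not called. Xist, the RNA that coats an inactive X chromosome, was at 29.4 and 1.93 CPM in the FLAG-Lhx1 pair and at 2.66 and 14.5 CPM in the FLAG-Lhx1-mt pair. Each group held 1 embryo with more Xist; it had the higher G6pdx of its pair in the FLAG-Lhx1 group and the lower in the FLAG-Lhx1-mt group.

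Pathway neighbours of G6pdx were counted with it. Of 7 tested genes of the pentose phosphate list, 6 had negative folds and 1, Pgls, fell. Pgls encodes the lactonase of the step after G6PDX and had 26.3 and 28.1 CPM in FLAG-Lhx1 embryos against 48.0 and 51.5 CPM in FLAG-Lhx1-mt embryos (-0.87 ± 0.16, edgeR adjusted p = 0.00557), and DESeq2 called 2 of the 7 lower. In the branch that makes serine from a glycolytic intermediate, 1 of 5 genes fell. It was Phgdh, the first enzyme of that branch, at 90.4 and 75.4 CPM against 133 and 137 CPM (-0.70 ± 0.15, adjusted p = 0.0125).

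The remaining lists were nearly without calls. None of 10 tested glycolytic isoenzymes and regulators outside the 33 was called, though 9 had negative folds and edgeR gave 5 an unadjusted p under 0.05 (DESeq2 and limma-voom called 0). Tigar, which removes the activator of phosphofructokinase, had 17.5 and 12.8 CPM in FLAG-Lhx1 embryos against 23.7 and 22.9 CPM in FLAG-Lhx1-mt embryos (-0.62 ± 0.21, edgeR adjusted p = 0.0938). Of 10 other hexose transporters, edgeR, DESeq2 and limma-voom called 0 and edgeR gave 1 an unadjusted p under 0.05, Slc2a2, for GLUT2 of liver and visceral endoderm (log2 fold -0.54 ± 0.20, lower in both FLAG-Lhx1 embryos, adjusted p = 0.133). The next by p was Slc2a12 (adjusted p = 0.39).

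Each of 4 further lists had 0 calls by edgeR, DESeq2 and limma-voom. Among 14 genes of lactate and pyruvate handling, 2 had an unadjusted edgeR p under 0.05, Bsg, the partner protein of the lactate carriers (283 and 334 CPM against 483 and 369 CPM, adjusted p = 0.105), and Pdp2, a phosphatase that activates pyruvate dehydrogenase (adjusted p = 0.0679). Among 5 tested gluconeogenesis genes it was 1, Pck2 (adjusted p = 0.173), ahead of G6pc3 (adjusted p = 0.3). In the citrate cycle 13 of 17 folds were negative and 4 genes had an unadjusted p under 0.05, led by Mdh2 and Sdhd (adjusted p = 0.132 and 0.146). The hexosamine and glycogen branches went the other way, with 11 of 14 folds positive and 2 genes at an unadjusted p under 0.05, Gfpt1 and Pygl (adjusted p = 0.12 and 0.168).

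HIF, the oxygen-sensing factor, and MYC are known to drive glycolytic genes. Of 14 regulators, 1 fell, Mlx, a partner of glucose-sensing factors, and none rose. Mlx had 14.1 and 14.6 CPM in FLAG-Lhx1 embryos against 23.7 and 22.6 CPM in FLAG-Lhx1-mt embryos (-0.69 ± 0.19, edgeR adjusted p = 0.0464). Folds were positive in 8 of the 14, with a median of 0.13. By edgeR, 2 regulators had an unadjusted p under 0.05 and a positive fold, and 1 a negative one. Of 16 tested HIF targets outside glycolysis, Bnip3l, a mitophagy receptor gene, rose, at 276 and 271 CPM against 198 and 180.3 CPM (0.53 ± 0.14, adjusted p = 0.0349), and none fell; DESeq2 called 3 of the 16 higher. Positive folds numbered 12 of these 16, with a median of 0.26, beside 8051 of all 15822 tested genes, with a median of 0.01. The part of HIF or MYC in the levels of the 33 glycolysis genes was not tested. Over all 111 tested genes of the pathway lists, 1 rose and 3 fell, with a median of -0.07.

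Within families, the make-up was described from levels per kilobase and not tested. Pfkfb3 made up 17.82% and 17.96% of PFKFB transcripts in FLAG-Lhx1 embryos against 11.8% and 11.6% in FLAG-Lhx1-mt embryos, and Pfkfb1 58.6% and 60.0% against 69.7% and 64.8%. Ldhb was 15.2% and 16.6% of lactate dehydrogenase transcripts against 18.6% and 17.8%. Slc2a1 was 55.9% and 53.7% of the transporter pair against 51.6% and 47.9%, and Pfkl 70.8% and 71.3% of phosphofructokinase against 77.4% and 73.0%. In 17 of the 23 genes compared in 9 families, these included, the embryos of the groups did not overlap, and over the levels of all tested genes that share was 52.2%; many of these shares are tied, since shares in a family sum to a fixed total. The leading form of each family was the same in every embryo except for the transporters, where Slc2a3 led in FLAG-Lhx1-mt replicate 2. The order of this pair depended on the length: Slc2a3 led in both FLAG-Lhx1-mt embryos with the longest transcript, and in all 4 embryos with no length scaling. Pfkfb3 stood above Pfkfb2 in both FLAG-Lhx1 embryos and below it in both FLAG-Lhx1-mt embryos.

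**Figure D3:**
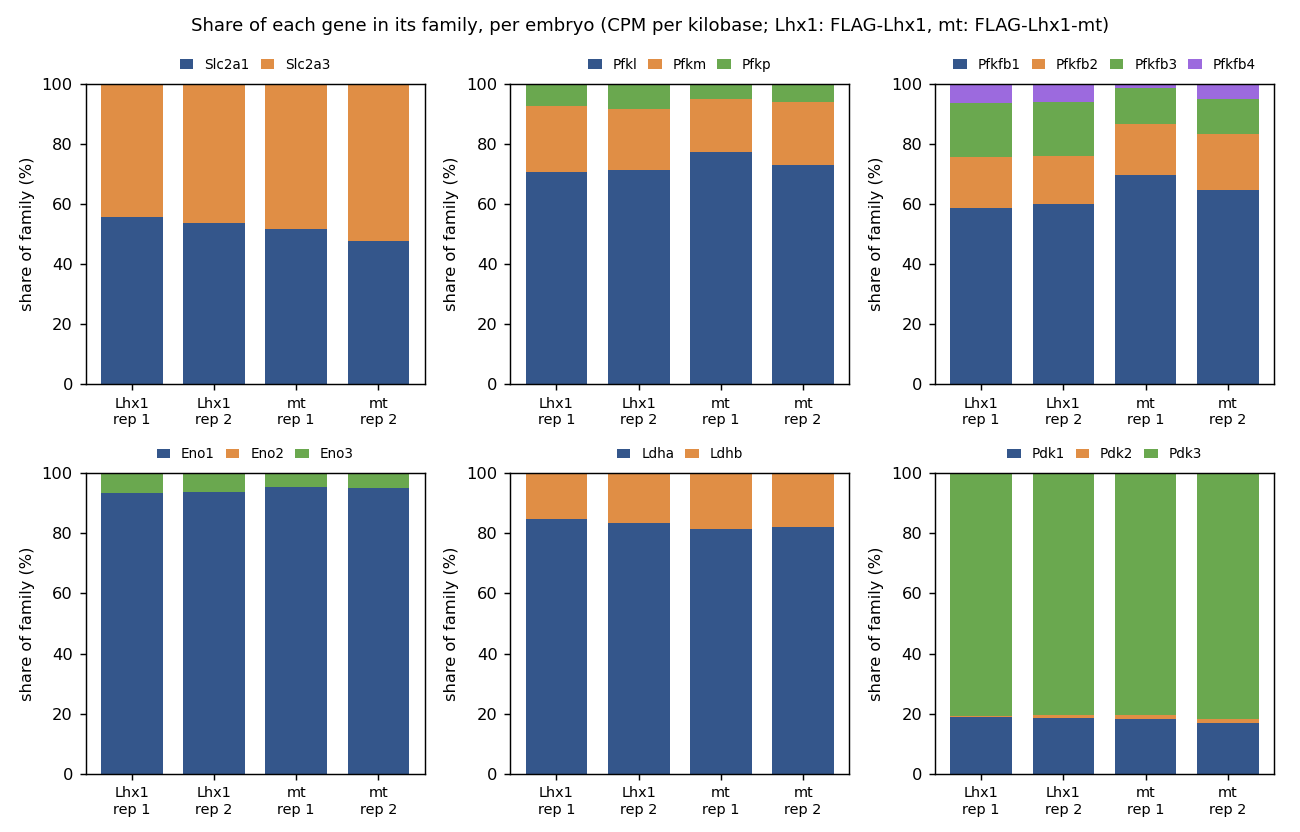
Share of each gene in its family in each embryo (percent of CPM per kilobase), for 6 families, with FLAG-Lhx1 embryos left of FLAG-Lhx1-mt embryos. The leading form of each family is the same in all embryos except for Slc2a1 and Slc2a3, and the Pfkfb3 share is 17.82% and 17.96% against 11.8% and 11.6%.

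Promoters are shown for the 4 called genes and for Ldha, the most abundant gene, because ACGTG, the core of the HIF and MYC binding sequences, is known to occur before glycolytic genes. RefSeq windows on GRCm38.p6, from 250 bases before to 50 bases after a gene start, were held for 32 of the 33 genes (51 windows), and matches of ACGTG on either strand are in capitals. Each CACGTG holds ACGTG on both strands, which count as separate matches.
Eno1, chr4:150236947-150237246, plus strand: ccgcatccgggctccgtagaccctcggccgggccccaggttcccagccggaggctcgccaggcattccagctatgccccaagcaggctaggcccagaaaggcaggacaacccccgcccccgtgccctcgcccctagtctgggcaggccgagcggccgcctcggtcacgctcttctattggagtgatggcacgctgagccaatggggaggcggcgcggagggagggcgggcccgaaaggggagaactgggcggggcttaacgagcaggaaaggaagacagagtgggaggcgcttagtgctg
Pfkl, chr10:78009758-78010057, minus strand: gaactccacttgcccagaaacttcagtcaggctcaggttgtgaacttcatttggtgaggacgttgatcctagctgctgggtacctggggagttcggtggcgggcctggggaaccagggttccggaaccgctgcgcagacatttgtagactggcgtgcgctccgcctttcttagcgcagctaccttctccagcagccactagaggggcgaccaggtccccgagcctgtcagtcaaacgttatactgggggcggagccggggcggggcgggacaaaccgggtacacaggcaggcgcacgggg
Ldhb, chr6:142507908-142508207, minus strand: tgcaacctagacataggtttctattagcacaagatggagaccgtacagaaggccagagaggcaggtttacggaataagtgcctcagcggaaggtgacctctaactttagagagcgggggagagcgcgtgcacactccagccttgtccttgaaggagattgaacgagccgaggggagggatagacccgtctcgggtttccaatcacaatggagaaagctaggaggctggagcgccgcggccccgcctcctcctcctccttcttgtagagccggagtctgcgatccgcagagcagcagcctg
G6pdx, chrX:74428831-74429130, minus strand: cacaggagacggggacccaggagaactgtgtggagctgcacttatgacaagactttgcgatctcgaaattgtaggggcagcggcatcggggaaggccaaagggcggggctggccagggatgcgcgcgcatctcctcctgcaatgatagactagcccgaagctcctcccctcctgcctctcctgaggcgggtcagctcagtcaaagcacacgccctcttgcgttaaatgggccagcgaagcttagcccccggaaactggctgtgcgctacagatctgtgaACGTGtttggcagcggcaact
Ldha, chr7:46845554-46845853, plus strand: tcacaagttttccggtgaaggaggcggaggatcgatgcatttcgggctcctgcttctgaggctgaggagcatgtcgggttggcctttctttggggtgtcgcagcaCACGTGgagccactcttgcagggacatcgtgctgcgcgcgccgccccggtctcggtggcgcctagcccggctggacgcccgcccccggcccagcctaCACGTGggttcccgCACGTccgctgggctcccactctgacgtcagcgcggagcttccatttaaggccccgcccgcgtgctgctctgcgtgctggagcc

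The Ldha window shown held 5 matches of ACGTG, 4 of them in 2 CACGTG sequences, and its other window held none. G6pdx held 1, and the windows of Eno1 (3 of 3, of which 2 overlap), Pfkl and Ldhb held none. Over the glycolysis genes, 23 of 51 windows (45.1%) had a match, against 19.6% of all 32851 windows, and CACGTG was in 11.8% against 7.15%. Windows of a gene can overlap, so that 1 site can count in 2 windows, as in Aldoa. By gene, 19 of 32 had a match of ACGTG. All windows were not matched to these for GC content. The homeodomain core TAATTA was in 2 windows (3.92%), of Pdha1 and Pfkfb1, against 5.29% of all windows. These counts describe letters in the windows and no binding.

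Markers of other cell types differed between the groups beside the glycolysis genes. Of 18 visceral endoderm markers 6 fell and none rose, led by Apoa1, Apoa4 and Apom (DESeq2 called 10 lower), and their summed level was 2556 to 2953 CPM in FLAG-Lhx1 embryos against 4279 to 4975 CPM in FLAG-Lhx1-mt embryos. Of 10 epiblast pluripotency markers 7 fell, led by Slc7a3, Tdgf1 and Utf1 (382 to 515 CPM against 987 to 1395 CPM), and of 10 streak markers 5 fell, led by Mixl1, Wnt3 and Eomes, and 1, Msgn1, rose (279 to 318 CPM against 642 to 683 CPM). The streak sums include Lhx1 itself, at 129 and 114 CPM in FLAG-Lhx1 embryos against 126 and 98.5 CPM in FLAG-Lhx1-mt embryos. Anterior neural plate markers, led by Hesx1, Fezf1 and Six3, rose in 7 of 10 (225 to 252 CPM against 85.3 to 124 CPM), and somite-forming mesoderm markers, led by Aldh1a2, Prrx1 and Foxc2, in 7 of 10 (111 to 146 CPM against 16.9 to 34.1 CPM). Otx2, which was not called, is in both the epiblast and the anterior neural sums. It had 63.7 and 56.1 CPM in FLAG-Lhx1 embryos against 57.7 and 83.2 CPM in FLAG-Lhx1-mt embryos. The part of these cell types in the levels of the glycolysis genes was not tested.

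Of 11 tested trophoblast markers, 3 fell, Eomes (also a streak marker above), Rhox5 and Cited1, and none rose. The 12 listed summed to 231 to 259.8 CPM in FLAG-Lhx1 embryos against 417 to 499 CPM in FLAG-Lhx1-mt embryos. Most of these sums came from the 3 that fell, with group means of 11.3, 97.4 and 111 CPM against 98.1, 164 and 168 CPM. Folds of the 11 tested were positive in 6 and negative in 5, with a median of 0.0086, and edgeR gave 2 of the positive ones an unadjusted p under 0.05. Heart muscle had 1 up (Tnnc1) and 1 down (Myl7) of 6 tested, and its 8 listed genes summed to 51.6 to 55.3 CPM against 71.4 to 126 CPM. Fos and Egr1 rose among 8 tested handling-response genes, and the 10 listed summed to 59.5 to 60.6 CPM against 28.3 to 37.5 CPM. No tool called any of 8 endothelial, 7 decidual or 2 tested erythroid markers, of which edgeR gave 2, 1 and 0 an unadjusted p under 0.05. Summed over all listed markers, tested or not (8, 9 and 9), levels were 44.6 to 45.1, 31.8 to 35.0 and 3.44 to 3.77 CPM in FLAG-Lhx1 embryos. In FLAG-Lhx1-mt embryos they were 44.9 to 45.0, 32.0 to 36.4 and 2.96 to 7.73 CPM. The 7.73 CPM, of replicate 2, included 2.43 CPM of 1 untested erythroid gene. Hba-a2 was at 0 in every embryo. Lhx1 itself had 129 and 114 CPM against 126 and 98.5 CPM (0.11 ± 0.16, edgeR adjusted p = 0.733), and its counts do not separate transgene from endogenous RNA.

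Transcript length moved with the folds. Over all tested genes the log2 fold had a Spearman's rho of 0.245 with the longest annotated transcript and of -0.163 with its GC content; over the 33 genes these were 0.463 and -0.394. Genes are not independent replicates and these values are descriptions. The 33 genes had a median transcript of 2848 bases, against 3261 bases for all tested genes. In the range of 2000 to 3000 bases, which holds the most of the 33, the median fold was -0.15 for those 11 and -0.07 for all 3090 tested genes. With offsets for length and GC content, the median of the 33 genes was -0.16 and that of all tested genes -0.05, and Eno1 and Pfkl kept their calls.

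**Figure D4:**
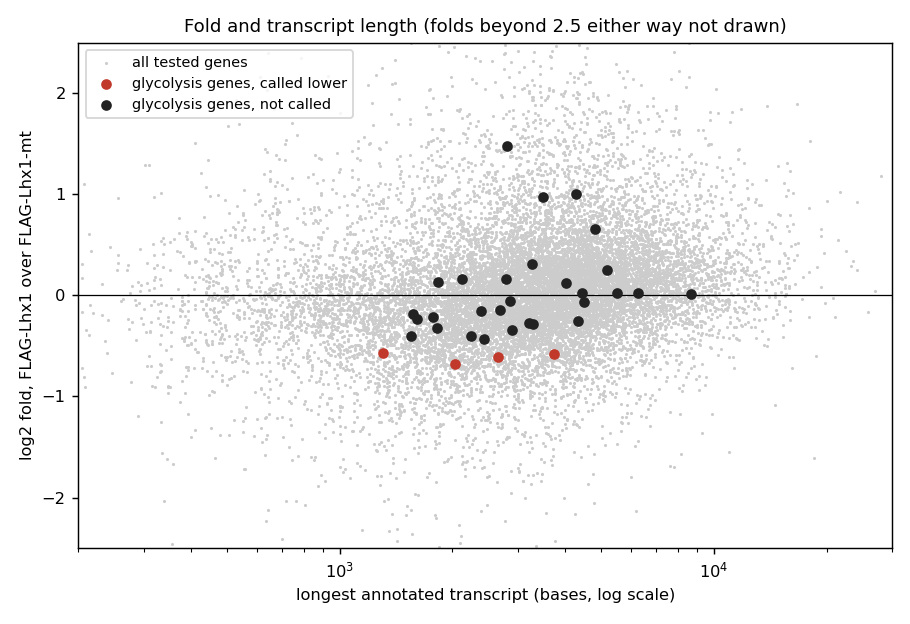
Log2 fold, FLAG-Lhx1 over FLAG-Lhx1-mt, against the longest annotated transcript in bases (log scale), with all tested genes in grey, glycolysis genes in black and the 4 called ones in red. Folds of short transcripts lie lower on average, with rho 0.245 over all tested genes and 0.463 over the 33.

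**Figure D5:**
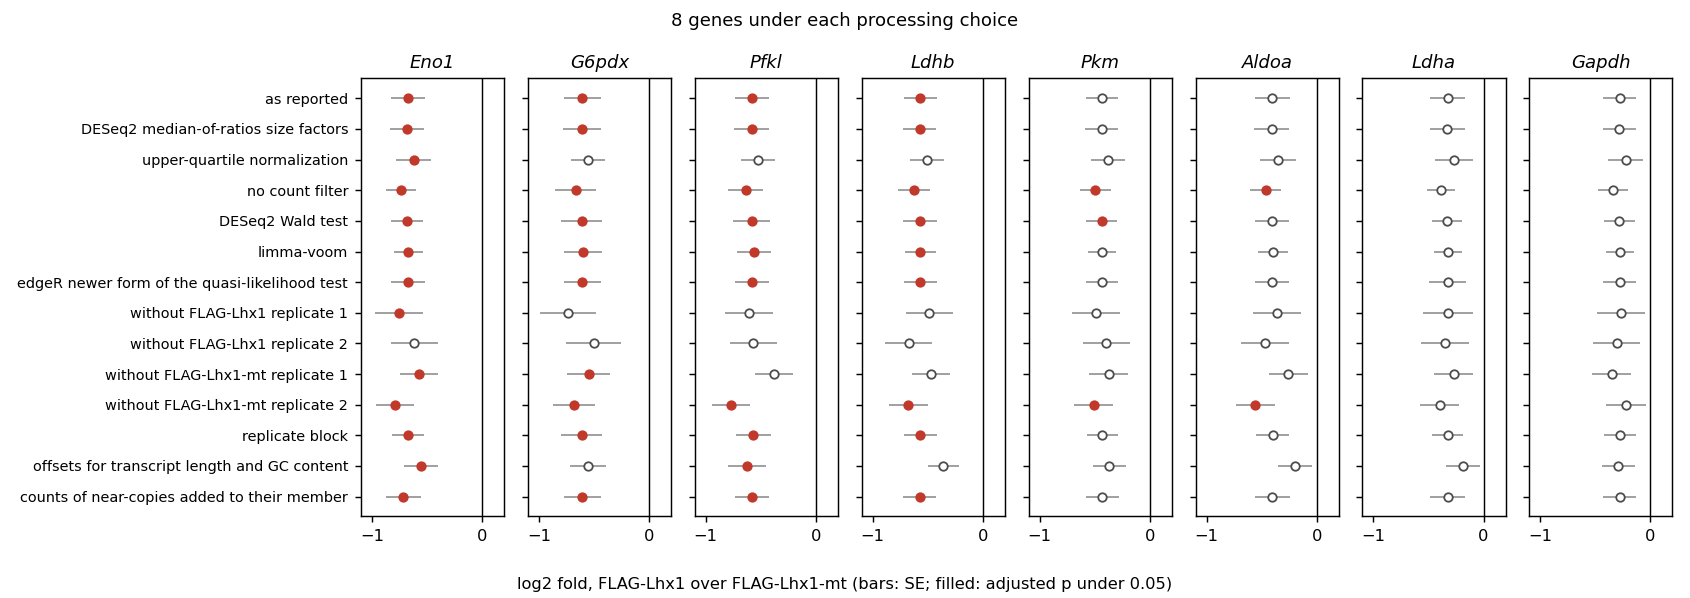
Log2 fold (bars are SE), FLAG-Lhx1 over FLAG-Lhx1-mt, of the 4 called genes and of Pkm, Aldoa, Ldha and Gapdh under each processing choice, with filled points where the adjusted p is under 0.05. All points of these 8 lie below 0 (Pgk1, second by level and with positive folds under each choice, is not among them), Eno1 is filled in all but 1 alternative, and Ldha and Gapdh are filled in none.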

How the data were processed

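The 4 embryos of 1 stage were compared as 2 FLAG-Lhx1 and 2 FLAG-Lhx1-mt. Per the labels' protocols, libraries followed Geo-seq, a full-length method for small inputs, where cDNA was amplified for 10 cycles and 0.5 ng of it went into a Nextera XT reaction. Reads were paired, 100 bp each; no molecular identifiers are mentioned, so reads are not independent molecules. The authors deposited whole-number read counts per Ensembl gene, not normalized; STAR, featureCounts, Subread, GRCm38 and mm10 are named, per the submitters' processing notes. Neither versions nor the annotation or strand mode were given in the sources. Reads of overlapping genes on opposite strands cannot be told apart in these counts.

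Symbols, lengths and positions came from GENCODE vM21 on GRCm38 (96.2% of 39179 IDs). filterByExpr (minimum count 10, total 15) left 15822 genes, which were scaled by TMM and tested by the legacy quasi-likelihood F test of edgeR 4.0.16 (under R 4.3.3), group only, all 4 embryos sharing 1 estimate of spread (2 residual and 13.4 prior degrees of freedom). SE is the log2 fold over the root of F. CPM use TMM library sizes. limma 3.58.1, DESeq2 1.42.0 and other alternatives are in the closing section. The procedure was also run on simulated data, with spread taken from these data and set folds larger than those of the called glycolysis genes. That run therefore does not cover folds of their size. No 2 libraries agreed within sampling noise (chi-square per degree of freedom 31.8 to 124).

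The members and lists (10 of pathway genes, 11 of markers) were chosen from general knowledge with earlier results of these data known. Named genes are all members, up to 4 called genes of each pathway list (or the 2 with the smallest p), up to 3 called markers of each list, and Lhx1; 1 gene that this rule names is not reported here. Near-copies were found with megablast on GENCODE transcripts; Eno1b, Ikbkg and Xist were named after their values were seen. The labels number the samples of a group as replicates, each an embryo, without naming litters or injection days, so p-values measure the spread between these samples only.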

Additional observations from a re-analysis of the deposited data

How the results depend on the processing

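Results were recomputed under 12 other settings, and 1 more, adding the counts of near-copies to their member, was added after seeing the data. Of 428 fold values of the 33 genes under these, 386 kept their direction and side of the threshold, 14 lost and 8 gained a call, and 20 changed sign, none of them in a gene called in the reported fit. The number of called glycolysis genes was 1 with upper-quartile normalization and 2 with length and GC offsets, and 0 to 7 with 1 embryo left out, against 4. Their median log2 fold was -0.089 with upper-quartile normalization, which moved the median of all tested genes to 0.06, and -0.20 without a count filter; it was -0.22 to -0.06 with 1 embryo left out. All called genes numbered 976, and 521 to 1648 with 1 embryo left out. Higher genes made up 42.5% of calls, but 54.4% with upper-quartile normalization. Folds that changed sign lay between -0.26 (Aldoc) and 0.11 (Pdha1) after the change. Without a count filter they were those of Slc2a3 (-0.034), Hk2 (-0.039), Pfkp (-0.047) and Slc16a1 (-0.041), and with the offsets those of Slc2a3 (-0.16), Hk2 (-0.11), Pfkp (-0.21), Slc16a1 (-0.19) and Eno3 (0.041). With 1 embryo left out the ranges crossed 0 for Slc2a3 (-0.081 to 0.12), Hk2 (-0.10 to 0.14), Pfkp (-0.039 to 0.048), Aldoc (-0.26 to 0.75), Pgam1 (-0.41 to 0.0023), Slc16a1 (-0.20 to 0.20), Pdha1 (-0.23 to 0.11) and Pdhb (-0.34 to 0.042). The cause was not tested. The labels do not say whether same-numbered embryos of the groups share a litter or injection day. Deviations of same-numbered embryos correlated at 0.016, which with 2 embryos a group cannot decide it. A replicate block called 4 of the glycolysis genes and 1138 genes in all, against 976 without it. Isoenzyme shares did not overlap in 17 of 23 genes with either length and in 18 without length scaling, beside 52.2% of all tested genes on their levels. Hk1, Pfkfb4, Pdk2 and Eno2 had 1 to 58 counts an embryo, which limits their folds.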
